A study of Mus musculus with 12 samples.

Results

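In all, 9 genes of regulated cell death were followed in cultured mouse oligodendrocyte precursor cells (OPCs): the death ligand Tnfsf10 (TRAIL), the death receptor Fas, the caspases Casp1, Casp4, Casp8 and Casp12, the pore-forming proteins Mlkl and Gsdmd, and Xaf1. They were taken by name, 9 of 55536 annotated genes, with earlier results of these data known. Their values are the Salmon read estimates of all transcripts of a gene added together. OPCs are the dividing cells of the brain that give rise to myelinating oligodendrocytes. Cells came from pooled brains of pups aged P4 to P6, and were isolated either by fluorescence sorting on the Sox10-GFP reporter or on magnetic beads against CD140a. The labels mark all libraries as Sox10GFP+ OPCs and carry the mouse model term EAE, although the cells were taken from pups and treated in culture. All cultures were grown with the growth factors PDGFaa and bFGF. Ctr cultures received no further treatment, Dexa cultures received 1 µM dexamethasone for 48 h, and IFNg cultures received 100 ng/ml of the cytokine IFN-γ for 48 h. There were 4 replicates per group, each from other litters, and the table of Dexa replicate 3 holds 33.7% of its transcripts, so that fits over all genes used 11 libraries with 3 of Dexa.

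Regulated cell death runs along several routes that share parts. In the extrinsic route, a ligand such as TRAIL or Fas ligand binds a death receptor, the adaptor Fadd recruits the initiator caspase-8, and effector caspases dismantle the cell. When caspase-8 is not active, the kinases Ripk1 and Ripk3 can phosphorylate Mlkl, which opens the plasma membrane (necroptosis), and the nucleic acid sensor Zbp1 can also engage Ripk3. In pyroptosis, caspase-1 or caspase-4 (called caspase-11 in older mouse literature) cuts gasdermin D, the product of Gsdmd, which then forms pores. Xaf1 binds Xiap, an inhibitor of caspases. OPCs and oligodendrocytes are known to be sensitive to IFN-γ in culture, and the caspases, Mlkl and gasdermin D are made in latent forms, so that a transcript level does not report death itself.

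On the reference build GRCm38, the 3 genes Casp1, Casp4 and Casp12 lie beside each other on chromosome 9, on the same strand, within 74516 bases from 5298517 to 5373032. Tnfsf10 lies on chromosome 3 (27317028 to 27342427), Fas on chromosome 19 (34290666 to 34327772) and Casp8 on chromosome 1 (58795374 to 58847503). Mlkl lies on chromosome 8 (111311797 to 111338177), Gsdmd on chromosome 15 (75862327 to 75867408) and Xaf1 on chromosome 11 (72301629 to 72313733). All 9 are protein-coding.

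Promoters of genes that respond to interferons are known for sites of the form TTCNNNGAA (the GAS element) and for repeats of a core that can be written AANNGAAA, which interferon regulatory factors (IRFs) bind. The 250 bases before each RefSeq gene start (GRCm38.p6) were searched on both strands for these letters and for the longer element GAAANNGAAA, which holds the core. The table of promoters has a window for 8 of the 9 genes and none for Gsdmd. These 8 genes have 9 windows. A gene was counted if any of its windows matched, whereas the share of all is per window. TTCNNNGAA occurred upstream of Fas and Casp12 (2 of 8) and in 7.02% of all 32817 windows. AANNGAAA occurred upstream of 6 of 8, namely Tnfsf10, Fas, Casp4, Casp8, Casp12 and Xaf1, and in 21.3% of all windows. GAAANNGAAA occurred upstream of 0 of 8 and in 2.97% of all windows. The stretches below hold a part of the matches, in capitals, in genes that moved with IFN-γ (plus strand of the genome, 5′ to 3′). Every TTCNNNGAA match is shown. For AANNGAAA, a match in Casp8 and that in Xaf1 are shown as examples. The other match in Casp8 and those in Tnfsf10, Fas, Casp4 and Casp12 are not shown.
Fas, TTCNNNGAA, chr19:34290546-34290594: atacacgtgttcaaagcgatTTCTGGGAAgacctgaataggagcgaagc
Casp12, TTCNNNGAA, chr9:5345354-5345402: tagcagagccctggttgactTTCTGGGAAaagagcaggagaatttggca
Casp12, TTCNNNGAA, chr9:5345430-5345458: attggtatgtTTCTGGGAAggaaaggcac
Casp8, AANNGAAA, chr1:58802374-58802421: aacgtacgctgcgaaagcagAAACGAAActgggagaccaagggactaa
Xaf1, AANNGAAA read on the minus strand, chr11:72301592-72301628: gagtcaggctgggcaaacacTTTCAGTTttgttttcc
The match in Fas and both matches in Casp12 had the same 9 bases. The Fas match lay 93 to 85 bases before the start, and the nearer of those of Casp12 lay 36 to 28 bases before it, inside an annotated exon. A match to these letters is a description of the sequence and not a measured binding site.

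The first comparison asks how cell death genes of OPCs responded to IFN-γ. All 9 genes were higher in IFNg than in Ctr cultures (DESeq2, Benjamini-Hochberg adjusted p under 0.05), against 8.02% of 17919 tested genes called higher and 4.83% called lower. edgeR's quasi-likelihood test called 8 of 9 higher, against 6.06% of all genes, and the gene it did not call was Casp8. With the replicate number as a block, DESeq2 called 9 of 9, against 15.2% of all genes higher and 14.1% lower. The values of the IFNg libraries lay above those of all Ctr libraries for 8 of 9, against 8.66% of tested genes. The median log2 fold change of the 9 genes was 5.71 with the genes at the count floor set to their lower bound (5.87 from the fitted values), and that of all tested genes was -0.016. Tnfsf10, Casp4 and Xaf1 passed the filter on low counts (at least 10 counts in at least 4 libraries) through their IFNg libraries alone, so their calls follow in part from the filter. Because the 9 genes were chosen with earlier results of these data known, these counts describe them and do not test them as a set. Measured in bulk, a rise cannot tell more RNA per cell from more cells of a kind that holds the RNA.

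**Figure D1:**
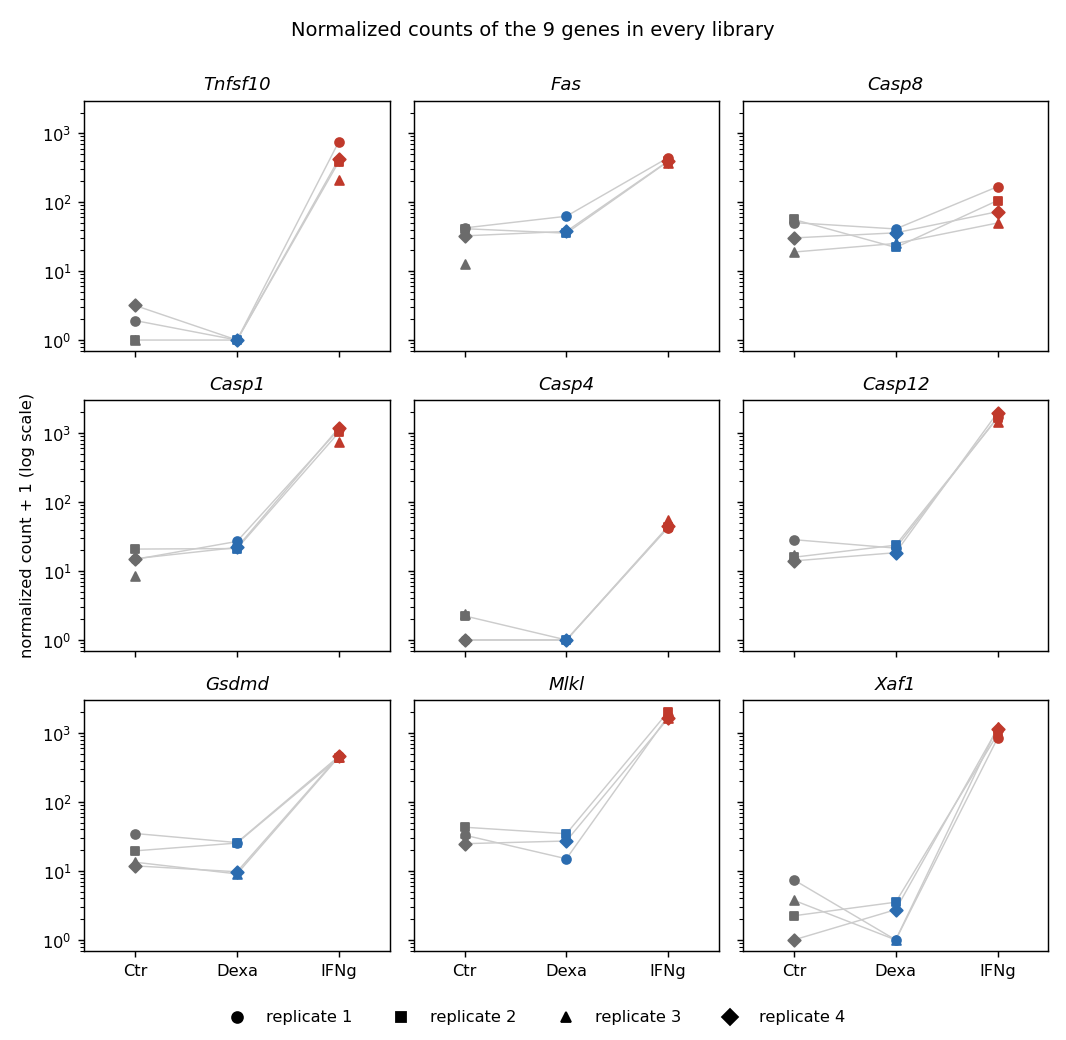
Normalized counts plus 1 (log axis) of the 9 genes in Ctr, Dexa and IFNg libraries; marker shape gives the replicate number, grey lines join libraries of the same number, and Dexa replicate 3 is drawn for Casp8, Gsdmd and Xaf1 alone because its table does not list the others. The IFNg points stand above all others in each panel except that of Casp8, where IFNg replicate 3 (49.0) lies below Ctr replicates 1 and 2 (49.6 and 55.1).

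Tnfsf10 encodes TRAIL, a membrane-bound ligand that signals death to neighbouring cells that carry its receptor. Values below are normalized counts, which are gene counts divided by DESeq2's size factor of the library, in the order of the replicate numbers. Tnfsf10 was 0.918, 0, 0 and 2.17 in Ctr, 0 in the 3 complete Dexa libraries, and 755, 386, 210 and 422 in IFNg. Ctr and Dexa cultures were therefore at the floor of detection, whereas every IFNg library held at least 180 reads, with replicate 1 the highest and replicate 3 the lowest. Set against a floor of 3 counts per library in Ctr, the gene was at least 179-fold higher in IFNg cultures (adjusted p = 3.58e-22 in DESeq2 and 7.41e-05 in edgeR). Its spread between IFNg libraries was among the widest of the 9 genes, with a coefficient of variation of 51.4%, and almost all of its IFNg reads (99.94%) were assigned to the transcript Tnfsf10-201.

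Fas, the receptor of Fas ligand, was 41.3, 40.3, 11.7 and 31.5 in Ctr, 61.5, 34.5 and 36.7 in Dexa replicates 1, 2 and 4, and 442, 390, 366 and 394 in IFNg. The receptor was thus present at a low level before treatment, and the IFNg libraries were close to each other, with a coefficient of variation of 8.02%, against 44.0% in Ctr. The increase was 12.8-fold (log2 3.68 ± 0.33 (SE), adjusted p = 3.22e-27, edgeR 5.82e-05). Pair by pair it ranged from 3.24 to 4.85 on the log2 scale, and the largest was in replicate 3, whose Ctr library was the lowest.

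Casp8, the initiator caspase downstream of both receptors and a brake on necroptosis, showed the smallest change of the 9. It was 49.6, 55.1, 17.9 and 29.3 in Ctr, 39.9, 21.1, 24.2 and 34.9 in Dexa, and 167, 105, 49.0 and 71.9 in IFNg. The Ctr and IFNg ranges overlapped, but within each replicate number the IFNg library was the higher one, by 1.73, 0.91, 1.40 and 1.27 on the log2 scale of normalized count plus 1. The increase was 2.59-fold (log2 1.37 ± 0.45 (SE)), and its adjusted p was 0.024 (DESeq2) and 0.091 (edgeR) without the block, and 1.85e-05 and 0.0017 with the replicate block. The call without the block was lost when IFNg replicate 1 (log2 0.99, adjusted p = 0.16), IFNg replicate 2 (1.34, 0.090), Ctr replicate 3 (1.13, 0.090) or Ctr replicate 4 (1.27, 0.10) was left out of the DESeq2 fit.

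**Figure D2:**
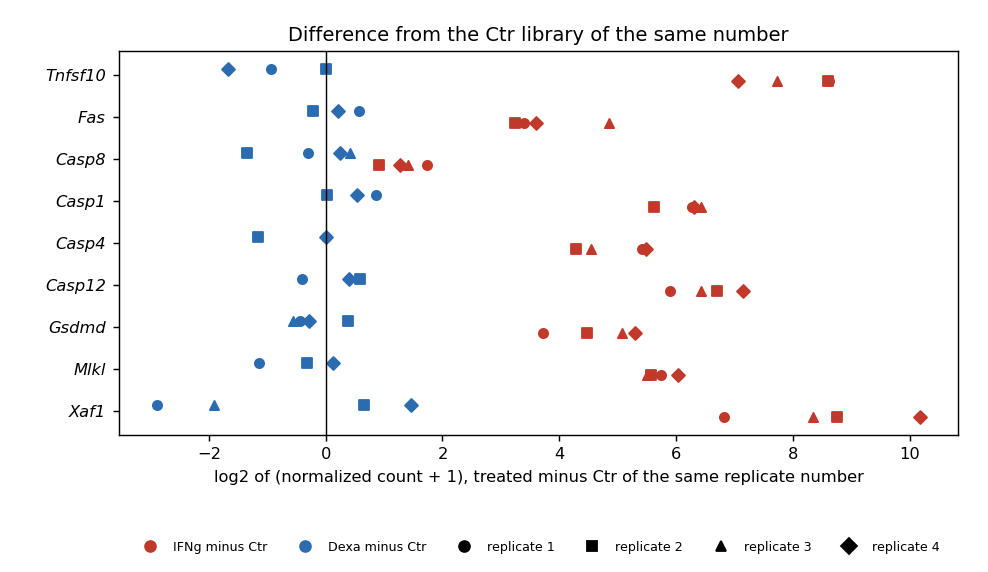
Difference in log2(normalized count + 1) between each treated library and the Ctr library of the same replicate number, for IFNg (red) and Dexa (blue); marker shape gives the replicate number. All 4 IFNg pairs are above 0 for each gene, from 0.91 (Casp8) to 10.18 (Xaf1), and the Dexa pairs lie at or below 0 for Tnfsf10 and Casp4, above 0 for Casp1 and on both sides of 0 for the other genes.

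The shares of the Casp8 transcripts were read too, but the test could not decide on them. It compared 4 against 4 libraries with 2 genes adjusted together. A gene that differed alone could then reach an adjusted p of 0.057 at the lowest (exact permutation test). The gene has 4 annotated coding transcripts, of which Casp8-201 starts at 58795374, Casp8-202 at 58802502 and Casp8-203 at 58802653, and the AANNGAAA match printed above lies upstream of the starts of Casp8-202 and Casp8-203. Casp8-203 held 63.2, 47.7, 71.3 and 100% of the gene's estimated reads in Ctr and 22.8, 27.0, 12.9 and 16.0% in IFNg, so that the groups did not overlap. Its mean share was 70.6% ± 21.9 in Ctr and 19.7% ± 6.41 in IFNg (SD, n = 4 each, exact two-sided permutation test p = 0.029, the smallest that 4 against 4 libraries can give). No gene had 50 reads in each of these libraries, the minimum set for this test, and with a minimum of 20 reads 2 could be tested, which gave adjusted p-values of 0.057 for Casp8 and 1 for the main transcript of Mlkl (exact permutation test). Casp8-202 held 0, 8.26, 0 and 0% in Ctr and 15.7, 60.1, 78.6 and 83.96% in IFNg. This transcript was picked after its values were seen and was not tested. The share of Casp8-201 varied widely within IFNg, from 0% in replicate 4 to 61.5% in replicate 1. These shares rest on 26 to 168 reads per library, which Salmon divides between overlapping transcripts.

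**Figure D3:**
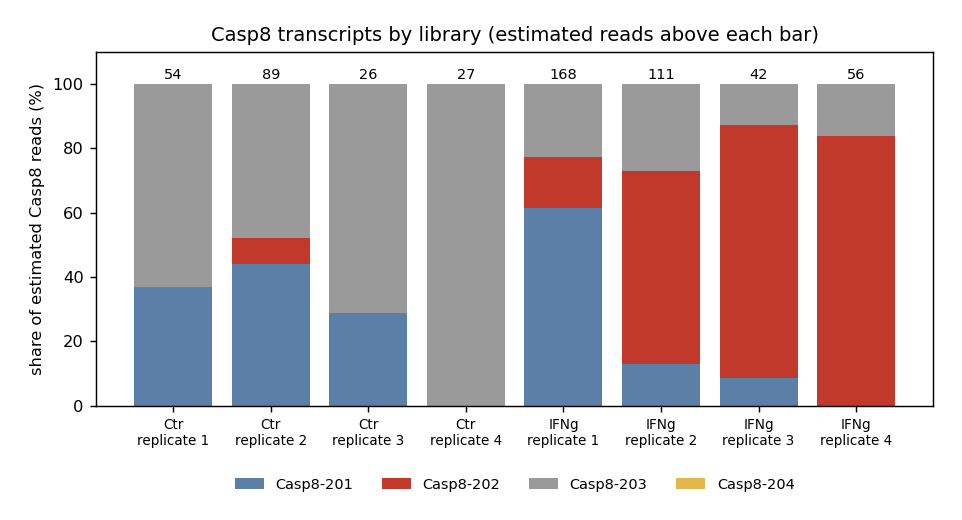
Share of the estimated Casp8 reads (percent, stacked) assigned to each of its 4 transcripts in the Ctr and IFNg libraries, with the estimated number of reads above each bar. Casp8-203 (grey) holds 47.7 to 100% in Ctr and 12.9 to 27.0% in IFNg, and Casp8-202 (red) holds at most 8.26% in Ctr and 15.7 to 83.96% in IFNg.

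The inflammatory caspases rose together. Casp1, which activates interleukin-1β and interleukin-18 and cuts gasdermin D, was 13.8, 19.8, 7.58 and 14.1 in Ctr, 25.9, 20.2 and 21.0 in Dexa replicates 1, 2 and 4, and 1135, 1024, 739 and 1193 in IFNg. The IFNg libraries stood far above all others, and the increase was 73.6-fold (log2 6.20 ± 0.28 (SE), adjusted p = 2.61e-105, edgeR 1.10e-07). Casp12, an inflammatory caspase linked to stress of the endoplasmic reticulum, was 27.5, 14.9, 15.8 and 13.0 in Ctr, 20.5, 22.7 and 17.5 in Dexa, and 1705, 1657, 1441 and 1986 in IFNg. It rose 96.1-fold (log2 6.59 ± 0.23 (SE), adjusted p = 9.84e-186, edgeR 9.75e-09). Casp4, a sensor of intracellular lipopolysaccharide that cuts gasdermin D directly, was 0, 1.24, 1.38 and 0 in Ctr, 0 in all 3 Dexa libraries, and 41.7, 42.5, 54.8 and 43.6 in IFNg. Casp4 was therefore at the floor without IFN-γ and at least 18.4-fold higher with it (adjusted p = 2.43e-12, edgeR 0.00012). The caspase genes of this cluster are related in sequence, and how reads shared between them were divided was not tested.

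Gsdmd, whose product forms the pyroptotic pore, was 33.96, 18.6, 12.4 and 10.9 in Ctr, 24.8, 24.4, 8.07 and 8.74 in Dexa, and 460, 436, 450 and 463 in IFNg. The IFNg libraries were nearly level, with a coefficient of variation of 2.71%, and the increase was 23.9-fold (log2 4.58 ± 0.31 (SE), adjusted p = 1.25e-46, edgeR 1.49e-05). Mlkl, which executes necroptosis, was 32.1, 42.1, 35.1 and 23.9 in Ctr, 14.0, 33.7 and 26.2 in Dexa replicates 1, 2 and 4, and 1771, 2038, 1639 and 1638 in IFNg. It rose 52.2-fold (log2 5.71 ± 0.21 (SE), adjusted p = 4.16e-162, edgeR 6.59e-08), and its 4 pairs agreed closely, from 5.50 to 6.04 on the log2 scale.

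Xaf1, the antagonist of Xiap, was 6.43, 1.24, 2.76 and 0 in Ctr, 0, 2.53, 0 and 1.75 in Dexa, and 840, 965, 1215 and 1162 in IFNg. From a level of a few reads it became the gene with the highest mean level per length of the 9, with a range that overlapped that of Casp12. The fitted increase was 406-fold (log2 8.67 ± 0.45 (SE), adjusted p = 6.70e-80, edgeR 1.02e-06). It rests on 13 Ctr reads in total, and without Ctr replicate 1, which held 7 of them, the log2 value was 9.45.

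Levels per length, in TPM (the share of transcripts after division of the reads by transcript length), place the genes on a common scale. In Ctr the means ran from 0.49 ± 0.23 TPM for Fas down to 0.0028 ± 0.0038 for Tnfsf10 (SD, n = 4), and the range of every gene overlapped that of the next one in the order. Fas, the highest of the 9, stood at percentile 23.4 of the mean TPM of all tested genes. In IFNg the order was Xaf1 (28.3 ± 5.24 TPM), Casp12 (24.1 ± 4.15), Mlkl (21.4 ± 4.41), Casp1 (16.7 ± 4.24), Gsdmd (7.20 ± 0.44), Fas (7.19 ± 0.95), Tnfsf10 (1.95 ± 1.01), Casp8 (1.16 ± 0.55) and Casp4 (0.81 ± 0.028) (SD, n = 4). Neighbouring ranges overlapped at each step of that order except between Casp1 and Gsdmd and between Fas and Tnfsf10. Xaf1 moved from percentile 2.13 in Ctr to percentile 86.0 in IFNg, and Mlkl from percentile 19.8 to 81.3. The Xaf1 level depends on how reads were divided between its transcripts, which was not tested. In IFNg the short Xaf1-202 (651 bases) had 12.9 to 16.5 TPM and the long Xaf1-204 (2597 bases) had 3.18 to 4.42 TPM. Part of this RNA was assigned to transcripts that are not annotated as coding. Coding transcripts took 78.0% ± 1.77 of Xaf1 reads and 66.8% ± 6.43 of Casp12 reads in IFNg (SD, n = 4). The rest was assigned to transcripts with a retained intron or marked for nonsense-mediated decay. Coding transcripts differ in length, such as Casp12-201 (2649 bases) and Casp12-204 (1065 bases). The share that encodes the whole protein was not measured. For the other 7 genes the mean coding share in IFNg was between 84.8% (Casp4) and 100%.

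**Figure D4:**
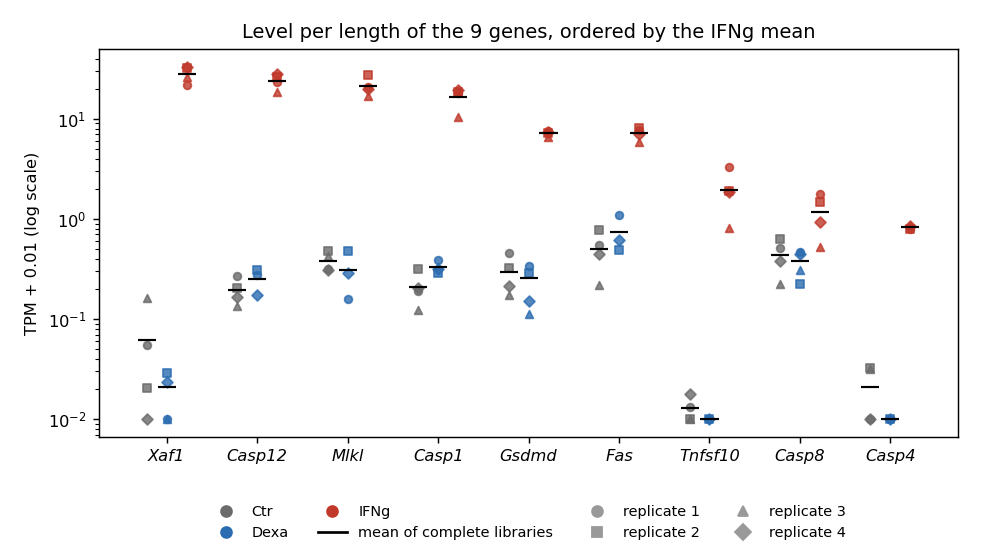
TPM plus 0.01 (log axis) of the 9 genes in each library, coloured by group, with a black line at the mean of the complete libraries; genes are ordered by the IFNg mean. In IFNg, Xaf1, Casp12, Mlkl and Casp1 lie between 10.4 and 33.2 TPM, Gsdmd and Fas between 5.93 and 8.06, and Tnfsf10, Casp8 and Casp4 between 0.52 and 3.26.

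Dexamethasone, a synthetic glucocorticoid, changed 0 of the 9 genes detectably (DESeq2), against 0.547% of all tested genes called in either direction. edgeR called 0 as well, with and without the replicate block. An unadjusted p under 0.05 was reached by 1 of 9 in DESeq2, namely Casp1, by 1 in edgeR, and with the block by 0 in DESeq2 and 1 in edgeR. Casp1 was 22.4 ± 3.09 in Dexa (SD, n = 3) and 13.8 ± 5.005 in Ctr (SD, n = 4), with a log2 difference of 0.69 ± 0.35 (SE, unadjusted p = 0.0496, adjusted p = 1). The log2 differences of Fas, Casp12, Casp8, Mlkl and Gsdmd were 0.51 ± 0.37, 0.23 ± 0.31, -0.26 ± 0.51, -0.44 ± 0.28 and 0.10 ± 0.39 (SE). Changes of the size of 1 SE to 2 SE would not have been detected. Larger ones could be missed too: Aldoc, a gene outside the 9, differed by 1.07 ± 0.30 (SE) and was not called (adjusted p = 0.061, DESeq2). Tnfsf10 and Casp4 were at the floor in both groups, and no fold is given. For the 3 genes that the table of Dexa replicate 3 lists whole, a fit with 4 Dexa libraries gave -0.34 ± 0.46 for Casp8, -0.095 ± 0.40 for Gsdmd and -1.04 ± 0.86 for Xaf1 (SE, adjusted p = 1 for each, DESeq2). The sign for Gsdmd thus differed from that without this library.

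Set against Dexa instead of Ctr, the IFNg libraries were higher for 9 of 9 genes (DESeq2), against 7.66% of all tested genes. edgeR called 8 of 9, and its share over all genes was not taken for this comparison. The same IFNg libraries are used here as in the comparison with Ctr. The calls of Tnfsf10, Casp4 and Xaf1 again follow in part from the filter, which they passed through the IFNg libraries alone. Casp8 was the weakest again, with a log2 fold change of 1.63 ± 0.50 (SE, adjusted p = 0.012 in DESeq2 and 0.075 in edgeR), and the DESeq2 call was lost without IFNg replicate 1 (log2 1.25) or Dexa replicate 2 (1.39). Tnfsf10, Casp4 and Xaf1 were at the floor in Dexa and were at least 121-fold, 12.5-fold and 285-fold higher in IFNg.

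The rest of the machinery was read from a list of 77 cell death genes in 10 roles, which holds the 9. This list, too, was chosen with earlier results of these data known. Of the other 68 genes, 54 passed the filter. Of these, 17 were higher in IFNg than in Ctr and 1 was lower (DESeq2, adjusted p under 0.05). Among all tested genes, 8.02% were called higher and 4.83% lower. edgeR called 14 higher and 0 lower, against 6.06% of all tested genes called higher. DESeq2 with the replicate block called 25 higher and 4 lower, against 15.2% and 14.1% of all tested genes. The median log2 fold change of the 54 was 0.19. Thus 11 of them rose by a log2 value of at least 1, and the other 6 rose by 0.41 to 0.66.

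Necroptosis had the largest change on the list outside the 9 genes. Zbp1 was 0.918, 2.48, 4.13 and 0 in Ctr and 661, 610, 681 and 611 in IFNg (log2 8.21 ± 0.45 (SE), adjusted p = 2.41e-71, edgeR 2.46e-06). Like Tnfsf10, Casp4 and Xaf1, it passed the filter through the IFNg libraries alone, and without Ctr replicate 3 its log2 value was 8.86. Ripk1 rose from 660 ± 83.8 to 1537 ± 228 normalized counts (SD, n = 4, log2 1.22, adjusted p = 5.70e-15). Ripk3, the kinase between Zbp1 or Ripk1 and Mlkl, stayed near the floor at 22.03, 12.4, 6.20 and 5.43 in Ctr and 16.9, 14.2, 5.83 and 5.14 in IFNg. Its log2 difference was -0.11 ± 0.58 (SE, adjusted p = 0.96), an interval too wide to tell a modest change in either direction.

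Among ligands and receptors, Tnfrsf10b, the mouse receptor of TRAIL, rose from 117 ± 21.96 to 279 ± 17.7 (SD, n = 4, log2 1.26 ± 0.16 (SE), adjusted p = 6.76e-14). Tnfrsf1a, the main receptor of tumour necrosis factor, rose from 858 ± 115 to 1880 ± 163 (log2 1.13 ± 0.15, adjusted p = 1.56e-12). Fasl, the ligand of Fas, had at most 5 reads in any Ctr and 3 in any IFNg library and was not tested. Tnfrsf22, a decoy receptor of TRAIL that was named because it was the single gene of the list called lower, fell from 154 ± 20.2 to 95.2 ± 19.7 (log2 -0.69, adjusted p = 0.018, edgeR 0.082). Its DESeq2 call was lost without Ctr replicate 3 or 4 or IFNg replicate 3 or 4, with adjusted p-values of up to 0.093 over all alternatives.

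The adaptors and brakes around caspase-8 differed among themselves. Cflar, a catalytically inactive relative of caspase-8 that restrains it, rose from 1097 ± 101 to 2215 ± 136 (SD, n = 4, log2 1.01 ± 0.086 (SE), adjusted p = 3.69e-30). Tnfaip3, the ubiquitin-editing inhibitor of NF-κB signalling, rose from 63.5 ± 11.5 to 162 ± 36.7 (log2 1.36, adjusted p = 0.00047), and Birc3, a ubiquitin ligase of the same complex, from 9.72 ± 3.25 to 41.4 ± 13.0 (log2 2.06, adjusted p = 2.62e-06). Fadd was 347 ± 69.1 in Ctr and 342 ± 43.5 in IFNg (adjusted p = 0.97), and Xiap, the target of Xaf1, was 3047 ± 171 and 3340 ± 286 (log2 0.13 ± 0.083 (SE), adjusted p = 0.37). Xiap was therefore already abundant in Ctr cultures, where Xaf1 was close to 0.

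Casp9, the initiator of the mitochondrial route, was 574 ± 21.8 in Ctr and 571 ± 23.9 in IFNg (SD, n = 4, log2 -0.0098 ± 0.077 (SE), adjusted p = 0.97, DESeq2).

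In the mitochondrial pathway, 5 of 16 tested genes rose and 0 fell, and with the replicate block in DESeq2 10 rose and 0 fell, where the backgrounds of genes called higher were 8.02% and 15.2%. Bid, which links caspase-8 to mitochondria, rose from 173 ± 12.6 to 539 ± 75.8 (SD, n = 4, log2 1.65 ± 0.13 (SE), adjusted p = 4.38e-34). The BH3-only genes Pmaip1 (Noxa) and Bbc3 (Puma) rose by 1.204 ± 0.27 and 1.14 ± 0.21 on the log2 scale (SE, adjusted p = 0.00015 and 9.30e-07). The survival genes Bcl2 (712 ± 184 and 935 ± 83.3) and Bcl2l1 (1144 ± 111 and 1355 ± 148) were not called without the block (adjusted p = 0.29 and 0.19), and with the replicate block in DESeq2 their adjusted p-values were 0.0015 and 0.015.

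In the inflammasome group, 1 of 6 tested genes rose and 0 fell (DESeq2), against 8.02% and 4.83% of all tested genes. The gene that rose was Gsdmd, already counted among the genes followed by name, and no other gene of the group was called. With the replicate block in DESeq2, 1 rose and 1 fell, against 15.2% and 14.1% of all tested genes. The gene that fell was Ninj1 (log2 -0.25, adjusted p = 0.040, edgeR with the block 0.020, DESeq2 without it 0.79). Of the 13 listed genes, 7 did not pass the filter. Pycard, the adaptor that joins sensors to caspase-1, was 49.3 ± 4.08 in Ctr and 72.7 ± 15.05 in IFNg (SD, n = 4, log2 0.56 ± 0.21 (SE), adjusted p = 0.059). It was called when IFNg replicate 3 was left out (adjusted p = 0.012) and by edgeR with the replicate block (0.046). Of the interleukin genes that caspase-1 acts on, Il1b had at most 2 reads in any library, and Il18, named after its values were seen, was 648 ± 132 in Ctr and 661 ± 90.1 in IFNg (SD, n = 4, log2 0.027 ± 0.20 (SE), adjusted p = 0.97, DESeq2).

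In Dexa, 1 of the 63 tested genes of the list was called (DESeq2), against 0.547% of all tested genes. Bcl2l1 was 1173, 1218, 980 and 1206 in Ctr and 1801, 1759 and 1511 in Dexa replicates 1, 2 and 4, an increase of 1.48-fold (log2 0.57 ± 0.13 (SE), adjusted p = 0.0028). edgeR did not call it (0.19) unless the replicate block was added (0.0095), and the DESeq2 call was lost without Dexa replicate 1 or Dexa replicate 2 (adjusted p = 0.12 in both).

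**Figure D5:**
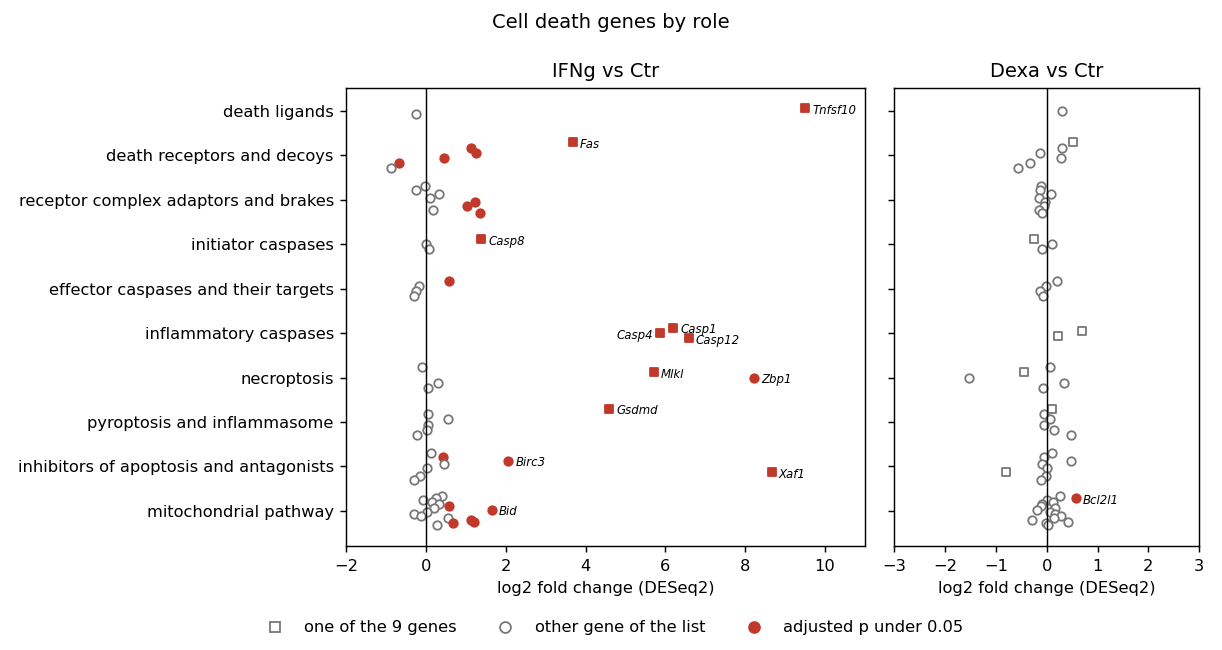
Fitted log2 fold change of tested genes of the cell death list by role, for IFNg against Ctr (left) and Dexa against Ctr (right); squares are the 9 genes, circles the others, and filled red marks an adjusted p under 0.05 (DESeq2). Tnfsf10 and Casp4 are left out on the right, where both groups were at the floor; on the left every gene drawn above a log2 value of 3 is Zbp1 or belongs to the 9, and on the right Bcl2l1 is the 1 gene called.

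Because Casp1, Casp4, Gsdmd, Mlkl and Zbp1 are also expressed by immune cells, markers of other cell types were read in the same libraries. Of 15 microglia and macrophage markers, 11 had under 10 counts in every complete library, among them Cx3cr1, Aif1, Trem2, Tyrobp and Siglech with at most 3. The other 4 reached more, with up to 73 counts for Cd68, 33 for P2ry12, 18 for Csf1r and 13 for Tmem119. Of the 15, 3 passed the filter and could be tested, and 0 of these were called with IFN-γ by DESeq2, with or without the replicate block, or by edgeR. The summed TPM of these 15 markers was 0.73 to 1.54 in Ctr and 1.24 to 2.13 in IFNg. All 7 T cell and NK cell markers had under 10 counts everywhere. OPC markers summed to 808 to 1886 TPM in Ctr and 668 to 1443 in IFNg. DESeq2 called 1 of 8 lower and 0 higher, and edgeR called 0 either way. With the replicate block in DESeq2, 5 of 8 were called lower (Pdgfra, Cspg4, Sox10, Gpr17 and C1ql1) and 0 higher. Astrocyte markers summed to 149 to 317 TPM in Ctr and 269 to 435 in IFNg. DESeq2 called 2 of 8 higher and 0 lower, and edgeR called 1 higher (Gfap) and 0 lower. With the block 4 were called higher (Gfap, Aldh1l1, Slc1a3 and Aldoc) and 3 lower (Aqp4, Gja1 and S100b). Neuronal markers summed to 13.4 to 15.9 TPM in Ctr and 27.1 to 60.0 in IFNg. Of the 4 that could be tested, DESeq2 and edgeR each called 2 higher and 0 lower. With the block in DESeq2, 2 were called higher and 1 lower (Snap25). Among all tested genes, DESeq2 called 8.02% higher and 4.83% lower, and 15.2% and 14.1% with the block. The share edgeR called higher was 6.06%. The part of any of these cell types in the changes of the cell death genes was not tested. As a check of the treatments, 4 of 4 IFN-γ response genes rose in IFNg, and 3 of 4 glucocorticoid response genes rose in Dexa. Reads in genes numbered 19209059 to 52074655 in the 11 complete libraries.

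The genes whose pattern over the 11 complete libraries was most like the mean of the 9 genes (Pearson correlation of log2(normalized count + 1) with the mean z-score) were Bmp2k (r = 0.997), Lap3 (0.997), Azin2 (0.997), Psmb10 (0.996) and Crem (0.996). Among the 9 genes themselves, r with this mean was 0.83 for Casp8 and 0.97 to 0.99 for the others. The points share 3 treatment groups and 4 replicate numbers, so these values describe the common step in IFNg.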

How the data were processed

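The authors trimmed reads of strand-specific, ribosome-depleted total RNA libraries and ran Salmon 0.8.2, which gave the deposited estimated counts and TPM values per transcript. Their transcripts all matched GENCODE M21 (GRCm38), by which estimated counts were added per gene and rounded. DESeq2 tables with the fold changes and p-values of the authors were deposited too and were not used. The members and all gene lists were chosen with earlier results of these data known. A minimum of 10 counts in 4 of the 11 complete libraries left 17919 genes, which were tested with DESeq2 1.42.0 (Wald test, all 3 groups in 1 fit, no covariate, no shrinkage), with Benjamini-Hochberg adjustment. The quasi-likelihood test of edgeR 4.0.16 was printed beside it as an alternative. The reason was that DESeq2, with and without the replicate block, made more false calls on simulated data than its threshold allows. Those simulated counts held no effect of the replicate number, so they cannot show how the blocked fit behaves on paired libraries. Tests assume that litters are independent. Deviations from the group means correlated at 0.404 to 0.722 between libraries of the same replicate number and at -0.614 to 0.495 between other numbers. These ranges overlap in part. The libraries were taken as paired by number, and the replicate block was fitted as an alternative. No libraries agreed within sampling noise (chi-square per gene 22.3 to 224). Folds against a group with no library above 3 counts are lower bounds, set against 3 counts per library. Counting intervals cover counting error only. Transcript shares were compared by exact permutation tests in Python 3.11.15 with scipy 1.17.1.

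Named were the 9 members, the 12 largest increases (11 qualified) and 6 largest decreases (0 qualified) of the cell death list among genes called with a log2 change of at least 1, those called in Dexa, 14 fixed genes of the pathways, and the 5 genes most like the members. Of these, 2 are not reported here. Alternatives were edgeR, the replicate block in both tools, no filter, a filter on 3 libraries, only the groups compared, each library left out, and a log2 threshold of 1.5.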

Additional observations from a re-analysis of the deposited data

Results flagged for a closer look

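In groups of 4 libraries, a value was singled out by Dixon's test where its gap to the nearest other library took too large a part of the group's range. Among 64 groups of the genes named, 1 value met this, and chance gives about 1 in 20. Casp4 in IFNg replicate 3 had 54.78 normalized counts, against 41.7 to 43.6 in the other IFNg libraries. On the scale of TPM the same library was again the highest, at 0.839, and the others ran from 0.788 to 0.837.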

How the results depend on the processing

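Under 17 alternatives and with the fold threshold, the number of the 9 genes called stayed at 8 or 9 for IFNg against Ctr and for IFNg against Dexa, and at 0 for Dexa against Ctr. Casp8 is the gene whose call depends on the setting. The replicate block called 9 of 9 with IFN-γ in DESeq2 and in edgeR. For the cell death list, 26 of 63 tested genes were called higher, and 12 when a log2 change of 1.5 was required too. Of all tested genes, DESeq2 called 8.02% higher and 4.83% lower, and 15.2% and 14.1% with the replicate block. The 1 gene called lower became 0 in edgeR and with the fold threshold, 4 with the replicate block in DESeq2 and 3 with it in edgeR, and 0 to 2 with 1 library left out. The 1 gene called in Dexa became 0 in edgeR and with the fold threshold, and 0 to 1 with 1 library left out. No transcript share was called: 0 genes could be tested at 50 reads, and at 20 reads 2 could. There the adjusted p of Casp8 was 0.057 (exact permutation test, libraries not paired). That is the lowest value a gene could reach alone, so the test could not have called Casp8 by itself.

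Signs changed for genes with log2 values near 0 when 1 library was left out: Fadd (-0.11 to 0.08), Ripk3 (-0.43 to 0.39) and Casp9 (-0.03 to 0.02) in IFNg, and Gsdmd in Dexa (-0.09 to 0.53). Adding the incomplete library gave Gsdmd -0.09 in Dexa, against 0.10 for the same genes without it. The cause was not tested. Depth limits Tnfsf10, Casp4, Xaf1 and Zbp1 in Ctr and Dexa, where a few reads set the fold: without Ctr replicate 3 the log2 value of Zbp1 was 8.86. TPM shares could not be tested at 50 reads.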
